A study of Mus musculus with 19 samples.

Results

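The Egr, Nr4a and Klf genes that cells switch on within minutes of a stimulus were followed by ATAC-seq through the differentiation of mouse neural stem and progenitor cells into astrocytes. The genes were Egr1, Egr2, Egr3, Nr4a1, Nr4a3, Klf2, Klf4 and Klf6. Their peaks were those with a centre inside the gene or within 20 kb of either end, on GRCm38 RefSeq coordinates, and the rule used no measured value. It gave 44 of the 90154 peaks of the table, from 3 at Egr1 and Klf4 to 13 at Nr4a1. All 44 were 500 bp long, 10 had their centre inside the gene and 34 outside, and all 44 passed the filter on low values. Some lay near an end of another gene and were still counted and summed by the rule. Named by distance from the gene start, Egr2 +11.2 kb lay 127 bp from Ado and Egr3 +22.8 kb 18 bp from Bin3. Nr4a1 +17.2 kb lay 292 bp from Atg101 and Nr4a1 +25.3 kb 974 bp from Smim41.

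In ATAC-seq a transposase inserts adapters into open DNA, and reads therefore pile up where chromatin is accessible. The NSPs (C57BL/6J, ventricular zone, embryonic day 14) were floating neurospheres kept growing with EGF and titled as the 0 h libraries (3 libraries). The other cells had been moved to serum on coated plates, which starts astrocytic differentiation. They were collected after 24 h (3 libraries), 24 h with TNF at 50 ng/ml (3), 72 h (3), 72 h with TNF at 50 ng/ml (3) and 1 week without TNF (4). NSPs and differentiating cells thus differed in growth factor, serum and attachment as well as in time, which cannot be told apart here. The samples were bulk cultures, so a smaller share of cells with an open region and less opening in each cell cannot be told apart either.

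Immediate early genes are transcribed from promoters that are already open, without the need for new protein. Growth factors and serum act on them through MAP kinases and serum response factor, which binds CArG boxes, and through CREB, which binds cAMP response elements whose core is TGACG. The EGR proteins are zinc finger activators that bind GC-rich sites and are restrained by the NAB corepressors, the NR4A proteins are orphan nuclear receptors that act without a known ligand, and the KLF proteins are zinc finger factors that bind GC boxes and CACCC elements. In neural tissue EGR1 marks growth factor and synaptic signalling, EGR2 is known for myelination and hindbrain patterning, and KLF4 for holding cells in a stem state.

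Promoter sequences are shown for 3 genes whose start peak was lower at 24 h than in NSPs and for Klf2, whose start peak was not called then. Each is the 250 bases before the transcription start, 5′ to 3′ on the strand of the gene, from RefSeq on GRCm38.p6. Capitals mark an exact CArG box, as defined below, and every TGACG on either strand (CGTCA on the strand shown).
Egr2, chr10:67537619-67537868, plus strand: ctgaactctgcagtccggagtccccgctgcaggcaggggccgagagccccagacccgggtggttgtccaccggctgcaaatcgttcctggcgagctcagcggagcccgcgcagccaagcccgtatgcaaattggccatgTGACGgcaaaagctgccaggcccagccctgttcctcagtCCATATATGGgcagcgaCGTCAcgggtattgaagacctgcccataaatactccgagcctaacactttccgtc
Nr4a1, chr15:101266596-101266845, plus strand: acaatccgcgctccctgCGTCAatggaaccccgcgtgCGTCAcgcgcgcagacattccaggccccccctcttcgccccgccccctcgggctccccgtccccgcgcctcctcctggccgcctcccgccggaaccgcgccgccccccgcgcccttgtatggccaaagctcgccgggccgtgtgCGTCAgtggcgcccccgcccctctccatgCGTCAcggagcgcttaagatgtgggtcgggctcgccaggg
Klf4, chr4:55532476-55532725, minus strand: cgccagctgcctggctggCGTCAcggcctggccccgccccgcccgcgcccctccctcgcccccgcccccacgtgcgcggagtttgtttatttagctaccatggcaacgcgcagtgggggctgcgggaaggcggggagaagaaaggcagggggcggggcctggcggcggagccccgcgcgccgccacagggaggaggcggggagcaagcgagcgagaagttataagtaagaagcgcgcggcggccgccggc
Klf2, chr8:72318812-72319061, plus strand: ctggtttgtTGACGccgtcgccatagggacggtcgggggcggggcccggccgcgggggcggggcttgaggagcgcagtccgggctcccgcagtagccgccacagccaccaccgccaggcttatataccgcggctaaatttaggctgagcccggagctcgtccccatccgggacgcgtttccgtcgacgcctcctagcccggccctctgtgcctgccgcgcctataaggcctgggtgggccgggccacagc

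The table of promoters held 6 of the 8 genes, and Egr1 and Egr3 were not matched. The windows of Egr2, Nr4a1, Klf2, Klf4 and Klf6 lay wholly under the start peak, and none of the Nr4a3 window did. An exact CArG box (CC, then 6 of A or T, then GG) was found in the Egr2 window alone among the 6, starting 72 bases before the transcription start. Of 32536 distinct windows of the same length, 1.48% held it. Boxes with a mismatch were not searched for, so the other windows may still hold such sites. TGACG was found 4 times in Nr4a1 and Nr4a3, 2 times in Egr2, 1 time in Klf2 and Klf4 and not in Klf6, and 17.9% of all windows held it. The EGR site GCGNGGGCG occurred 2 times in Klf4 and 1 time in Nr4a1 and Klf2 (4.74% of windows), and it can share bases with the GC box GGGCGG, which was in 5 of the 6 windows, all but Egr2 (33.0% of windows). Neither the AP-1 site TGANTCA (6.73% of windows) nor an NF-κB site (3.92%) was found in the 6, on either strand. The windows were rich in GC, from 61.6% in Egr2 to 74.4% in Nr4a1, against a median of 52.4% over all windows, and held 17 to 34 CpGs against a median of 6.

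The values are normalised reads per peak, that is, the reads of a library over its size factor. Reads in peaks ranged from 9640256 to 39349111 per library and were highest in the NSPs (28636739 to 39349111). Cells were isolated from the brains of single mice and the methods speak of independent biological experiments in general, but the labels tie no library to an animal or culture, so p-values measure the spread between these libraries, which may be technical. The lowest count behind any value of the 44 peaks was 5 reads. NSP replicate 1 stood apart from the other NSP libraries, with Spearman correlations across all peaks of 0.926 and 0.916 against 0.983 between replicates 2 and 3. At 6 of the 44 peaks it lay more than 1.5 times above the mean of the other NSP libraries and at 8 more than 1.5 times below, whereas replicates 2 and 3 were that far apart at 2 peaks. Results against NSPs are therefore also given without it. The names of the 10 libraries of the 72 h, 72 h with TNF and 1 week groups carry a tag that the other 9 do not, so a handling step behind this tag cannot be told apart from time where 72 h or 1 week is set against NSPs. The gene-end peaks of 7 proliferating progenitor markers summed to between 5801 and 6752 in NSPs, between 3007 and 3701 at 24 h, 3247 and 3393 at 24 h with TNF, 2648 and 3079 at 72 h, 3167 and 3376 at 72 h with TNF and 3525 and 4065 at 1 week, and 7 of the 7 were called lower at 24 h. Of 8 astrocyte markers, Aqp4 and Slc14a1 had no gene-end peak. The other 6 summed to between 1353 and 1507 in NSPs, 1404 and 1658 at 24 h and 1148 and 1278 at 24 h with TNF. The sums lay between 1560 and 1671 at 72 h, 1165 and 1237 at 72 h with TNF and 1161 and 1308 at 1 week. At 24 h 1 of the 6 was higher than in NSPs, Gfap, by a log2 fold change of 2.35 ± 0.22, and 3 were lower. At 72 h 2 were higher and 2 lower than in NSPs, and at 1 week 3 were higher and 2 lower. With TNF 0 of the 6 were called at 24 h, and at 72 h 2 were lower and 0 higher. Of 6 microglia markers, Aif1, Cx3cr1, Csf1r and Itgam had no gene-end peak, and the remaining 2 summed to between 115.1 and 183.4 in NSPs and between 93.3 and 161.3 at 24 h and 72 h, with or without TNF. At 1 week the sums lay between 52.99 and 73.99, and both P2ry12 (-1.11 ± 0.24) and Tmem119 (-1.38 ± 0.31) were lower than in NSPs. Gene-end peaks were found for 3 of 6 neuron markers (sums of 680.3 to 1015), 3 of 6 oligodendrocyte markers (282.4 to 396.8) and 2 of 5 mural and fibroblast markers, whose sums went from 232.6 to 255.9 in NSPs to 321.9 to 338.6 at 1 week. Acta2, a smooth muscle actin, was higher than in NSPs at 24 h (1.78 ± 0.21), 72 h (1.74 ± 0.21) and 1 week (1.58 ± 0.20). The other of these markers, Col1a1, went the other way, called lower at 24 h and 72 h and not called at 1 week. The part of cell makeup in the results was not tested.

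At 24 h of differentiation most peaks of these genes were lower than in NSPs. A call is an adjusted p under 0.05 in limma-trend on log2(value + 1), adjusted over 88919 peaks. At 24 h, 25 of the 44 peaks (56.8%) were lower, against 23.0% of all peaks tested, and 4 (9.09%) were higher, against 24.2%. The median log2 fold change was -0.59 for the 44 and -0.07 for all peaks. At 72 h, 24 were lower (background 30.9%) and 8 higher (28.3%), and after 1 week 23 were lower (33.6%) and 8 higher (33.7%). The shares called lower stood above the background at the 3 times and those called higher below it. The comparisons share the NSP libraries and are not independent of each other. Without NSP replicate 1, 26, 25 and 23 peaks were lower and 4, 8 and 9 were higher at 24 h, 72 h and 1 week. With each library scaled by its total reads, which moved the median of all peaks to 0.11 at 24 h and to 0.21 at 72 h, 22 were lower and 5 higher at 24 h, and 21 lower and 12 higher at 72 h.

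Of the 44 peaks, 19 were lower at all 3 times and 2 were higher at all 3. The latter were Nr4a3 +34.6 kb, in the gene, and Klf6 -16.2 kb. There were 5 peaks with no call in any of the 6 comparisons reported here. The shares of all peaks with such joint calls were not computed, so these counts have no background to be read against.

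**Figure D1:**
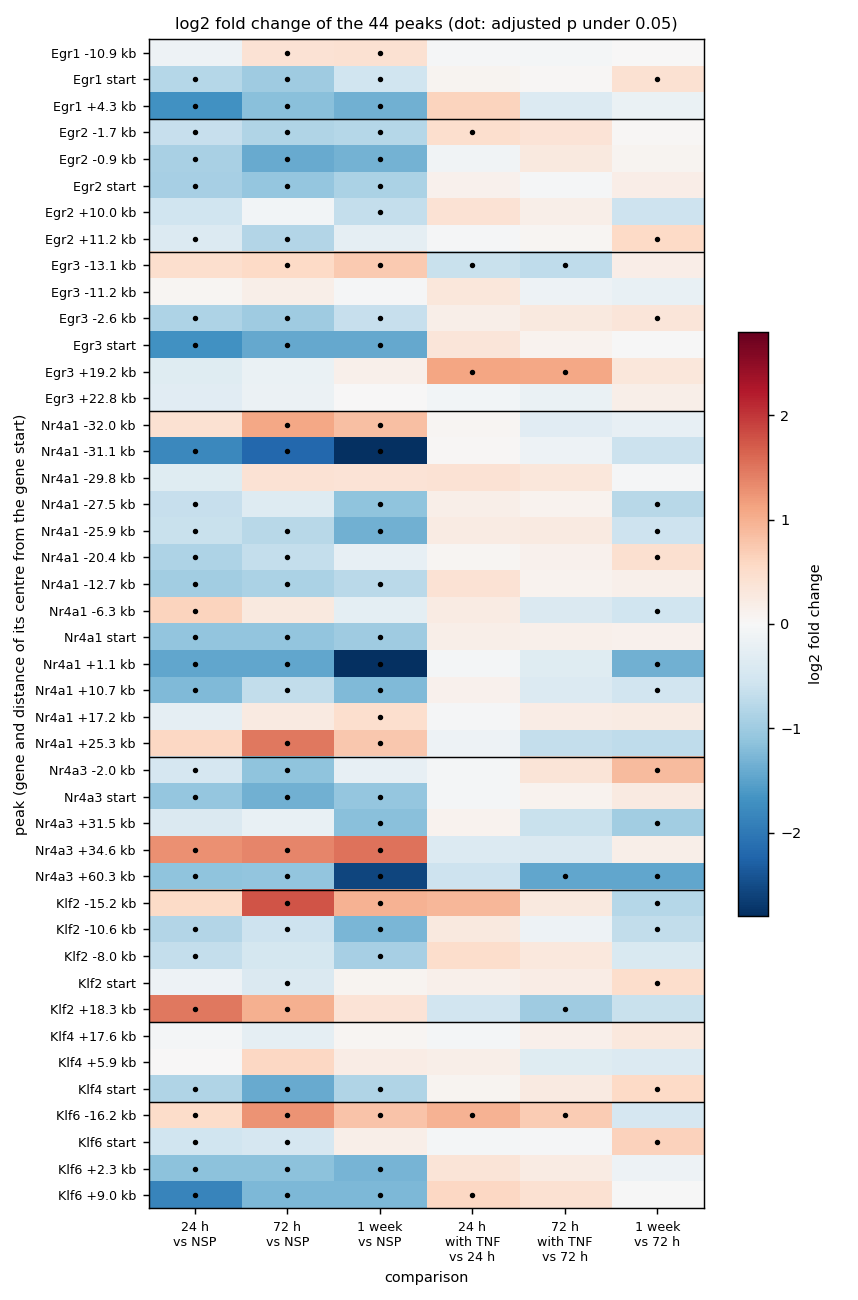
Heat map of the log2 fold change of the 44 peaks (rows, named by gene and distance of the peak centre from the gene start) in 6 comparisons (columns), where blue is lower, red is higher and a dot marks an adjusted p under 0.05. The 8 start peaks are blue at 24 h and 72 h, with 7 and 8 called lower, and at 1 week all but Klf2 and Klf6 are blue, with 6 called lower. None carries a dot in either TNF column. With loess scaling the Klf2 start peak turned at 72 h and 3 start peaks turned in the last column.

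The summed signal of all peaks of a gene was highest in NSPs for each of the 8 genes. The mean at 24 h was 53.4% of the NSP mean for Egr1, 58.5% for Egr3, 59.2% for Klf6, 59.4% for Nr4a1, 63.8% for Egr2, 64.9% for Klf4, 68.1% for Nr4a3 and 87.7% for Klf2. Klf2 thus kept most of its summed signal, and after 1 week it stood at 97.0% and Klf6 at 89.2%. The start peak made up most of the Klf2 sum (in NSPs a mean of 1273 for the peak and 1581 for the sum). For Klf2 and Klf6 the NSP libraries overlapped those of the next group (24 h with TNF and 1 week), and for the other 6 genes they stood above every other library. Below the NSPs neighbouring groups overlapped, except 72 h with TNF and 72 h at Egr3, 24 h with TNF and 72 h with TNF at Nr4a3, and 1 week and 72 h with TNF at Klf6. Egr1, for example, followed the order NSP, 1 week, 24 h with TNF, 24 h, 72 h and 72 h with TNF, from 3110 ± 340 (SD, n = 3) in NSPs to 1614 ± 143 (SD, n = 3) at 72 h with TNF, and from 1 week on each group overlapped the next.

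**Figure D2:**
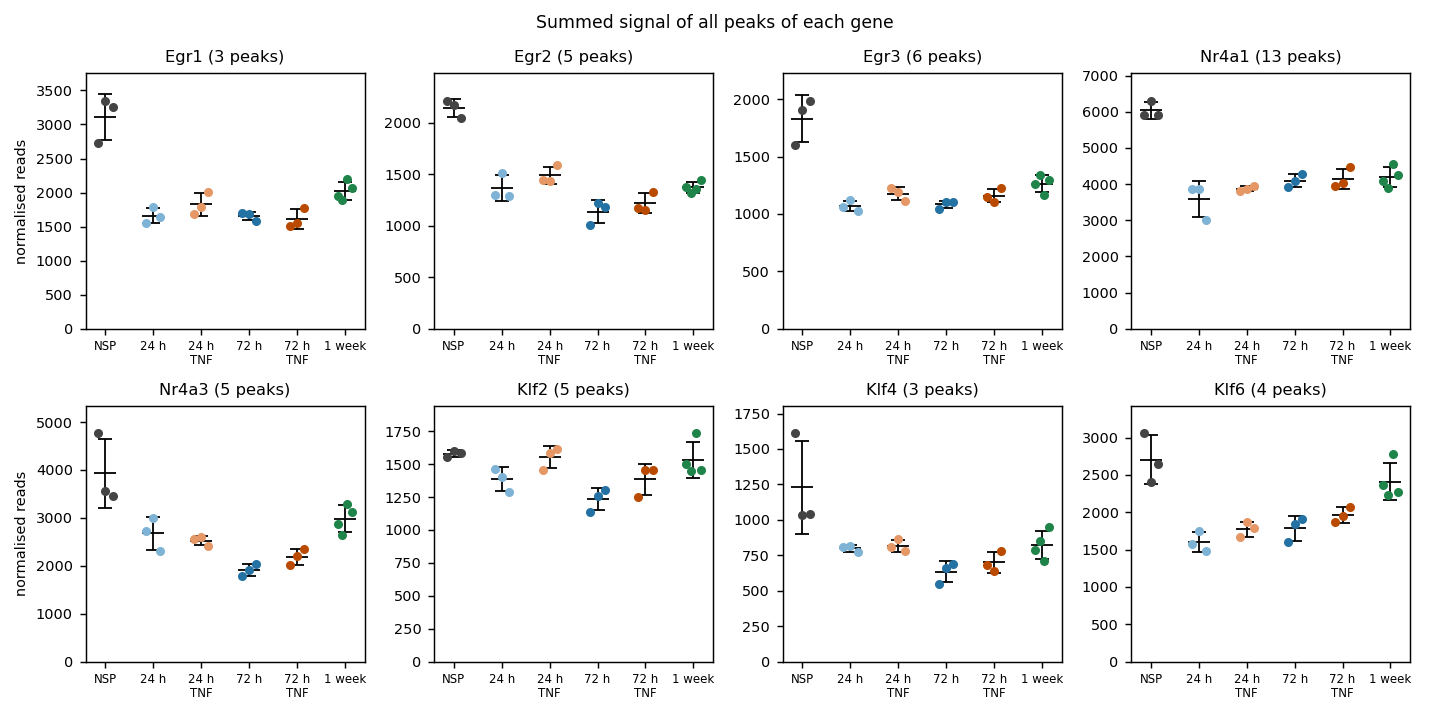
Summed normalised reads of all peaks of each gene (vertical axis, from 0) in the 6 groups (horizontal axis). Points are libraries, and the bar and whiskers are the mean and SD. The NSP points lie above those of all other groups except at Klf2 and Klf6.

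The peaks at the gene starts were lower at most of the genes. The start peak is the one whose centre lay closest to the transcription start, at 27 bp (Nr4a1) to 559 bp (Nr4a3), or, at Egr1 and Egr3, closest to the lower-coordinate end of the gene, because no strand was at hand for them. At 24 h, 7 of the 8 start peaks were lower than in NSPs, with a median log2 fold change of -0.88 over the 8, and the exception was Klf2. At 72 h all 8 were lower (median -1.10), with loess scaling 6, since Klf2 then changed by 0.01 and Klf6 by -0.04, and with total-read scaling 6. After 1 week 6 were lower (median -0.87), all but Klf2 and Klf6. Of 13346 gene-end peaks in general, 39.3% were lower and 6.27% higher at 24 h, and 53.7% were lower and 9.62% higher at 72 h. At 1 week the shares were nearly even, with 27.6% lower and 26.5% higher. Their median log2 fold changes were -0.28, -0.39 and 0.01.

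**Figure D3:**
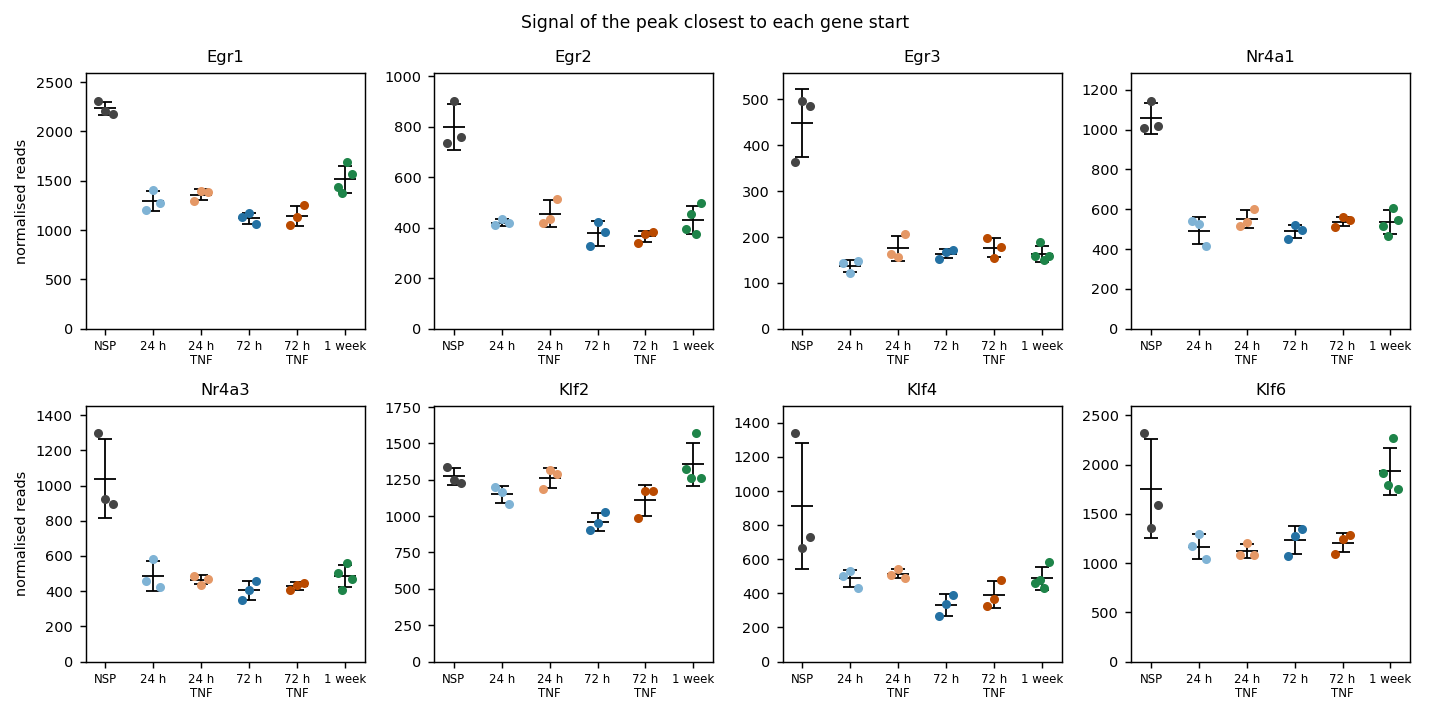
Normalised reads of the start peak of each gene (vertical axis, from 0) in the 6 groups. Points are libraries, and the bar and whiskers are the mean and SD. In NSPs the points stand above every other group except at Klf2 and Klf6, and at Klf4 and Klf6 NSP replicate 1 stands above the other NSP libraries.

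Among the Egr genes, Egr3 lost the largest share of its start peak at 24 h. EGR3 is a relative of EGR1 that is induced after it and shares its binding site. The Egr3 gene lies at chr14:70077317-70082613 and its start peak at chr14:70076639-70077139, outside the gene body. The values were 363, 497 and 486 in NSPs, 142, 122 and 148 at 24 h, 153, 167 and 171 at 72 h and 158, 189, 149.6 and 158 at 1 week. All NSP libraries stood far above all others. The 24 h libraries lay just below those of 72 h and 1 week, which overlapped. The log2 fold change against NSPs was -1.69 ± 0.16 (SE) at 24 h (adjusted p = 5.03e-10), -1.44 ± 0.16 at 72 h and -1.44 ± 0.15 after 1 week. The peak at -2.6 kb was also lower at all 3 times, whereas those at -11.2 kb, +19.2 kb and +22.8 kb were not called against NSPs.

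Egr1, the founding member of the family, lies on chromosome 18 at 34861207 to 34864956. Its start peak (34860644 to 34861144) was the tallest of the Egr start peaks, with 2313, 2208 and 2181 normalised reads in NSPs, 1201, 1407 and 1274 at 24 h, 1129, 1169 and 1059 at 72 h and 1437, 1379, 1686 and 1564 at 1 week. The NSP libraries stood above all others, and the 1 week libraries above those of 72 h. Against NSPs the peak was lower by a log2 fold change of -0.79 ± 0.10 (adjusted p = 2.09e-07) at 24 h, -0.998 ± 0.10 at 72 h and -0.56 ± 0.10 after 1 week. The peak at +4.3 kb (34865283 to 34865783) lay beyond the other end of the gene and split the NSPs. It had 197, 922 and 835 in NSPs, 154, 168 and 172 at 24 h, 225, 237 and 254 at 72 h and 223.95, 213, 218 and 189 at 1 week. NSP replicate 1 thus lay among the differentiated libraries. The log2 fold change at 24 h was -1.69 ± 0.33 (adjusted p = 9.79e-05) with that library and -2.41 without it, and the peak was called lower at all 3 times either way. The peak at -10.9 kb, inside the predicted gene Gm41689, was higher at 72 h (0.41 ± 0.12, a call lost without 72 h replicate 1, at 0.31, adjusted p = 0.0571) and at 1 week (0.42 ± 0.12).

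At Egr2 (chr10:67534469-67542188) 4 of 5 peaks were lower at 24 h. The start peak (chr10:67537501-67538001), whose promoter holds the CArG box shown above, had 737, 903 and 758 in NSPs, 409, 434 and 418 at 24 h, 326, 422 and 384 at 72 h and 397, 453, 374 and 498 at 1 week. The groups of differentiating cells overlapped each other and none reached the NSPs. The log2 fold changes against NSPs were -0.92 ± 0.13 (adjusted p = 8.92e-07) at 24 h, -1.08 ± 0.13 at 72 h and -0.90 ± 0.12 after 1 week. The neighbouring peaks at -1.7 and -0.9 kb were lower at all 3 times. The pair at +10.0 and +11.2 kb, of which the first lies in Ado and the second 127 bp from it, changed less. At +11.2 kb the call at 24 h (-0.37 ± 0.14) was lost on leaving out NSP replicate 1, 24 h replicate 1 or 24 h replicate 3 (-0.36 to -0.22).

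Nr4a1 and Nr4a3 encode the nuclear receptors NUR77 and NOR1, which bind DNA as monomers or dimers. The Nr4a1 start peak (chr15:101266569-101267069) lay over the promoter shown above. It had 1008, 1145 and 1016 normalised reads in NSPs, 539.7, 524 and 415 at 24 h, 453, 519 and 495 at 72 h and 517, 465, 607 and 548 at 1 week. All NSP libraries lay above all others, and the later groups overlapped. The log2 fold changes against NSPs were -1.11 ± 0.12 (adjusted p = 1.04e-08) at 24 h, -1.11 ± 0.12 at 72 h and -0.99 ± 0.11 after 1 week. Beyond the other end of the gene, the peak at +10.7 kb (chr15:101277318-101277818) had the smallest p of the gene at 24 h. Its values were 843, 1033 and 1049.9 in NSPs, 480.5, 419 and 344 at 24 h, 686, 538 and 591 at 72 h and 406, 382, 418 and 448 at 1 week, so that the 72 h libraries stood between the NSPs and the others without overlap. The log2 fold changes were -1.24 ± 0.13 (adjusted p = 4.63e-09) at 24 h, -0.69 ± 0.13 at 72 h and -1.23 ± 0.12 after 1 week.

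The 13 peaks of Nr4a1 (gene at chr15:101253902-101274795) did not move as one. At 24 h 8 were lower and 1 higher, and after 1 week 7 were lower and 3 higher. Among the 3, the peaks at +17.2 kb and +25.3 kb lay near the ends of Atg101 and Smim41. Several peaks outside the rule for named peaks were chosen after their values were seen. The largest declines were at -31.1 kb and at +1.1 kb, inside the gene, both with a log2 fold change of -2.79 at 1 week. At +1.1 kb the values were 123, 278 and 269.8 in NSPs, 79.7, 72.3 and 77.6 at 24 h, 68.2, 89.7 and 72.7 at 72 h and 36.1, 20.3, 33.0 and 31.1 at 1 week. The 1 week libraries lay below all others, and NSP replicate 1 lay between the other NSPs and the 24 h libraries. Peaks at -32.0 kb and +25.3 kb, at the far ends of the window, were higher at 72 h (1.08 ± 0.28 and 1.47 ± 0.33) and at 1 week. At +25.3 kb the 1 week call (0.75 ± 0.31) was lost on leaving out NSP replicate 2 or 3 or 1 week replicate 1, 2 or 3 (0.58 to 0.70), and without NSP replicate 1 the peak was also called at 24 h (0.83, adjusted p = 0.0405).

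At Nr4a3 (chr4:48045078-48086447) the start peak fell and a peak in the gene body rose. The start peak (chr4:48044496-48044996) had 1296, 922 and 895 in NSPs, 457, 584 and 424 at 24 h, 349, 406 and 459 at 72 h and 501, 409, 559 and 466 at 1 week. The NSPs stood above all others, with replicate 1 the highest. The log2 fold changes were -1.08 ± 0.14 (adjusted p = 4.31e-07) at 24 h, -1.35 ± 0.14 at 72 h and -1.09 ± 0.14 at 1 week, and -0.91 at 24 h without NSP replicate 1. In the gene body, the peak at +34.6 kb (chr4:48079623-48080123) moved the other way, with 103, 56.5 and 62.5 in NSPs, 151, 169.6 and 208 at 24 h, 238, 158 and 167 at 72 h and 209.8, 199.5, 198 and 226 at 1 week. The untreated differentiating libraries all lay above the NSPs. Its log2 fold changes were 1.28 ± 0.22 (adjusted p = 2.06e-05) at 24 h, 1.36 ± 0.22 at 72 h and 1.53 ± 0.21 after 1 week. The tallest peak of the gene, at -2.0 kb, was lower at 24 h (-0.47 ± 0.13) and 72 h (-1.13 ± 0.13), and at 1 week the change of -0.24 ± 0.12 was not called (adjusted p = 0.0773). It was called there on leaving out NSP replicate 3 or 1 week replicate 3 (-0.32 to -0.29).

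Start peaks of the Klf genes are given next. KLF4 is a pluripotency factor, KLF2 is best known from endothelial cells under flow, and KLF6 is broadly induced by injury. The Klf4 start peak (chr4:55532340-55532840, gene at chr4:55527137-55532475) had 1338, 668 and 729 in NSPs, 502, 529.6 and 429.9 at 24 h, 266, 335 and 391 at 72 h and 459, 479, 429 and 585 at 1 week. NSP replicate 1 was much the highest library, and the other NSPs still lay above all others. Against NSPs the changes were -0.84 ± 0.18 (adjusted p = 0.000477) at 24 h, -1.41 ± 0.18 at 72 h and -0.84 ± 0.17 after 1 week. Without NSP replicate 1 they were -0.52, -1.09 and -0.53, all still called. The other Klf4 peaks, at +5.9 and +17.6 kb beyond the end of the gene, were not called in any comparison, but without NSP replicate 1 the peak at +17.6 kb was lower at 72 h (-0.37, adjusted p = 0.0222) and higher at 1 week than at 72 h (0.30), as it was without 1 week replicate 3 (0.35).

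The Klf2 start peak (chr8:72318710-72319210, gene at chr8:72319062-72321654) had 1341, 1252 and 1226 in NSPs, 1200.0, 1164 and 1084 at 24 h, 906, 949.8 and 1029.9 at 72 h and 1327, 1264, 1569 and 1262 at 1 week. The 24 h libraries lay just below the NSPs, those of 72 h lower, and those of 1 week overlapped the NSPs. The change at 24 h, -0.15 ± 0.10, was not called (adjusted p = 0.256). At 72 h the peak was lower, by a log2 fold change of -0.41 ± 0.10 (adjusted p = 0.00154) that loess scaling turned to 0.01, and at 1 week the value was 0.09 ± 0.10 (adjusted p = 0.45). The peak at +18.3 kb (chr8:72337071-72337571) rose from 18.7, 20.7 and 19.3 in NSPs to 62.6, 53.1 and 54.2 at 24 h, and stood at 34.7, 41.9 and 44.6 at 72 h and 25.6, 21.8, 24.2 and 32.2 at 1 week. All libraries at 24 h and 72 h lay above all NSPs. The log2 fold change was 1.48 ± 0.30 (adjusted p = 0.000184) at 24 h, 1.00 ± 0.30 (adjusted p = 0.00549) at 72 h and 0.38 ± 0.28 (adjusted p = 0.242) at 1 week, the last of which was not called. With loess scaling the 1 week change was 0.82 and was called (adjusted p = 0.0115). On the other side, the peak at -15.2 kb was higher at 72 h (1.76 ± 0.33) and 1 week (0.96 ± 0.31, lost without NSP replicate 3 at 0.65), from values of 19.3, 16.0 and 8.64 in NSPs to 37.3, 67.0 and 48.4 at 72 h. The peak at -10.6 kb was lower at 24 h (-0.82 ± 0.23), 72 h (-0.58 ± 0.23) and 1 week (-1.27 ± 0.21). Its 72 h call was lost without NSP replicate 2 or 3 or 72 h replicate 1 or 3 (-0.54 to -0.45). The peak at -8.0 kb was lower at 24 h (-0.67 ± 0.24) and 1 week (-0.93 ± 0.23), and not called at 72 h (adjusted p = 0.0756). Its 24 h call was lost without NSP replicate 2 or 3 or 24 h replicate 3.

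At Klf6 (chr13:5861489-5870393) the start peak (chr13:5861043-5861543) had 2316, 1353 and 1589 in NSPs, 1170.4, 1292 and 1039.5 at 24 h, 1072, 1270.3 and 1349 at 72 h and 1915, 1788, 2269 and 1748 at 1 week. The 1 week libraries overlapped the NSPs, and the 24 h libraries lay below both. It was lower at 24 h (-0.55 ± 0.14 (adjusted p = 0.00194), and -0.33 without NSP replicate 1) and at 72 h (-0.48 ± 0.14 (adjusted p = 0.0047)). Without NSP replicate 1 the call at 72 h was lost (-0.26, adjusted p = 0.0556), as it was with total-read (-0.21) and loess scaling (-0.04), and the 1 week value went from 0.17 ± 0.13 (adjusted p = 0.265) to a called 0.39 (adjusted p = 0.00242). The peak at +9.0 kb (chr13:5870282-5870782), just beyond the end of the gene, had the lowest fitted log2 fold change of the 44 at 24 h, although without NSP replicate 1 Egr1 +4.3 kb was lower still (-2.41 against -1.95). It had 304, 354 and 377 in NSPs, 76.3, 119 and 91.1 at 24 h, 134, 153 and 145 at 72 h and 145, 129, 134 and 169 at 1 week. The NSPs stood above every later library. The log2 fold changes were -1.86 ± 0.16 (adjusted p = 1.64e-10) at 24 h, -1.25 ± 0.16 at 72 h and -1.25 ± 0.15 after 1 week. The peak at +2.3 kb, inside the gene, was also lower at all 3 times.

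**Figure D4:**
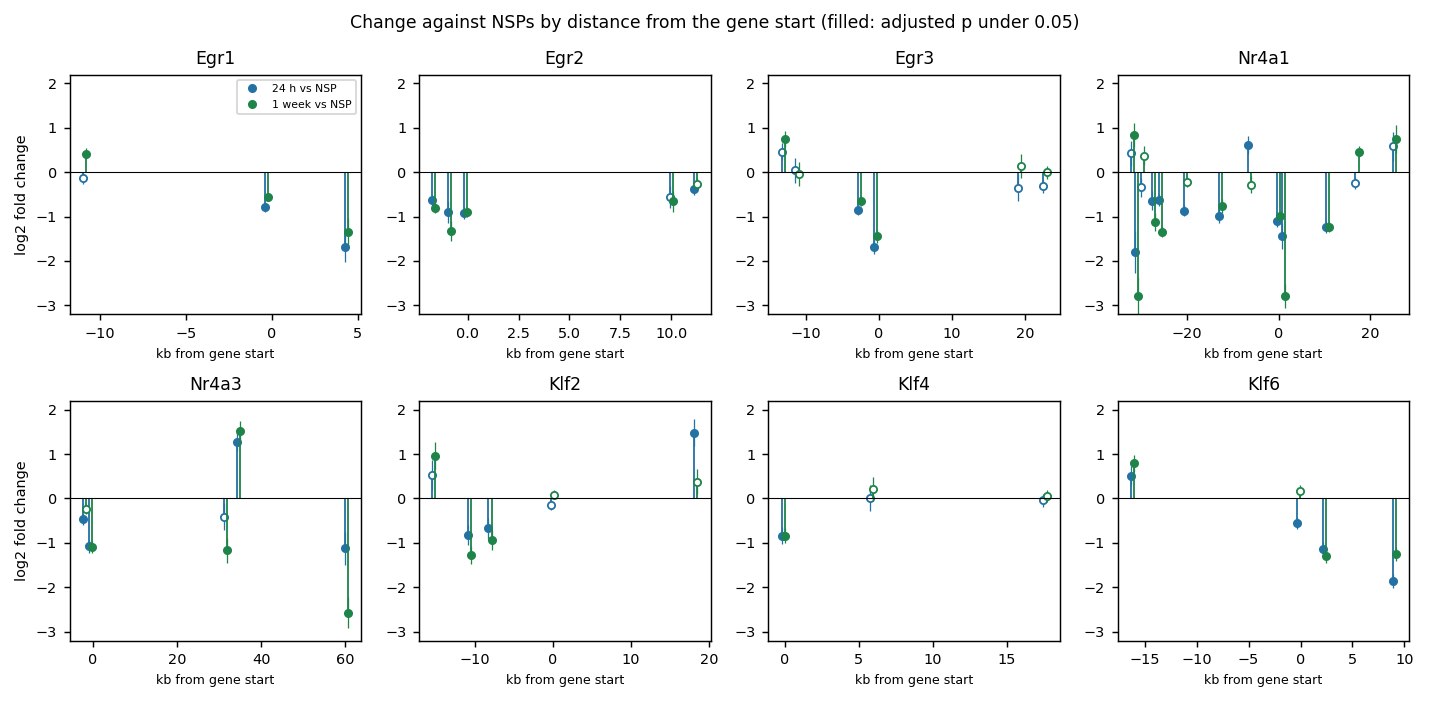
Log2 fold change against NSPs (vertical axis) of each peak by the distance of its centre from the gene start in kb (horizontal axis, positive in the direction of transcription and, for Egr1 and Egr3, of rising coordinate), at 24 h (blue) and 1 week (green). Whiskers are SEs, and filled points have an adjusted p under 0.05. The start peaks, the points closest to 0 kb, are filled and below 0 at all genes but Klf2 and, at 1 week, Klf6. The called gains lie from 6.3 kb outward.

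Calls were also counted apart from the starts. Of the 36 peaks other than start peaks, 18 (50.0%) were lower and 4 (11.1%) higher at 24 h, against 23.0% and 24.2% of all peaks. At 72 h 16 (44.4%) were lower and 8 (22.2%) higher, against 30.9% and 28.3%. At 1 week it was 17 (47.2%) and 8 (22.2%), against 33.6% and 33.7%. Some of the 36 are gene-end peaks of these or other genes, such as Klf6 +9.0 kb and Egr3 +22.8 kb. Of gene-end peaks in general 39.3%, 53.7% and 27.6% were lower at 24 h, 72 h and 1 week. The shares of all peaks are therefore not a matched background for this set. No start peak was higher than in NSPs at any of the 3 times, except that Klf6 was at 1 week when NSP replicate 1 was left out.

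Few of these peaks, and no start peak, were called with TNF. At 24 h, 4 of the 44 peaks (9.09%) were higher with TNF and 1 (2.27%) was lower, against 7.06% and 3.53% of all peaks, and at 72 h 2 (4.55%) were higher and 3 (6.82%) lower, against 6.24% and 5.55%. These shares lay near the background. With total-read scaling the split at 72 h was 1 higher and 4 lower, and the share of higher calls over all peaks went from 53.0% to 39.0%. No start peak was called by limma-trend, edgeR or DESeq2 at either time, with 1 of 8 at an unadjusted p under 0.05 at 24 h and 0 at 72 h. The 1 was Egr3 (0.34 ± 0.16, adjusted p = 0.185 by limma-trend), whose treated libraries all lay above the untreated ones. The log2 values of the start peaks spanned -0.06 to 0.34 at 24 h and -0.04 to 0.24 at 72 h. Among gene-end peaks in general 1.97% were higher and 0.854% lower at 24 h and 3.29% and 1.45% at 72 h. There were 7 peaks called at either time, at Egr2, Egr3 (2 peaks), Nr4a3, Klf2 and Klf6 (2 peaks), and 2 peaks were higher at both times, Egr3 +19.2 kb and Klf6 -16.2 kb. The shares of all peaks called at either time or at both were not computed.

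**Figure D5:**
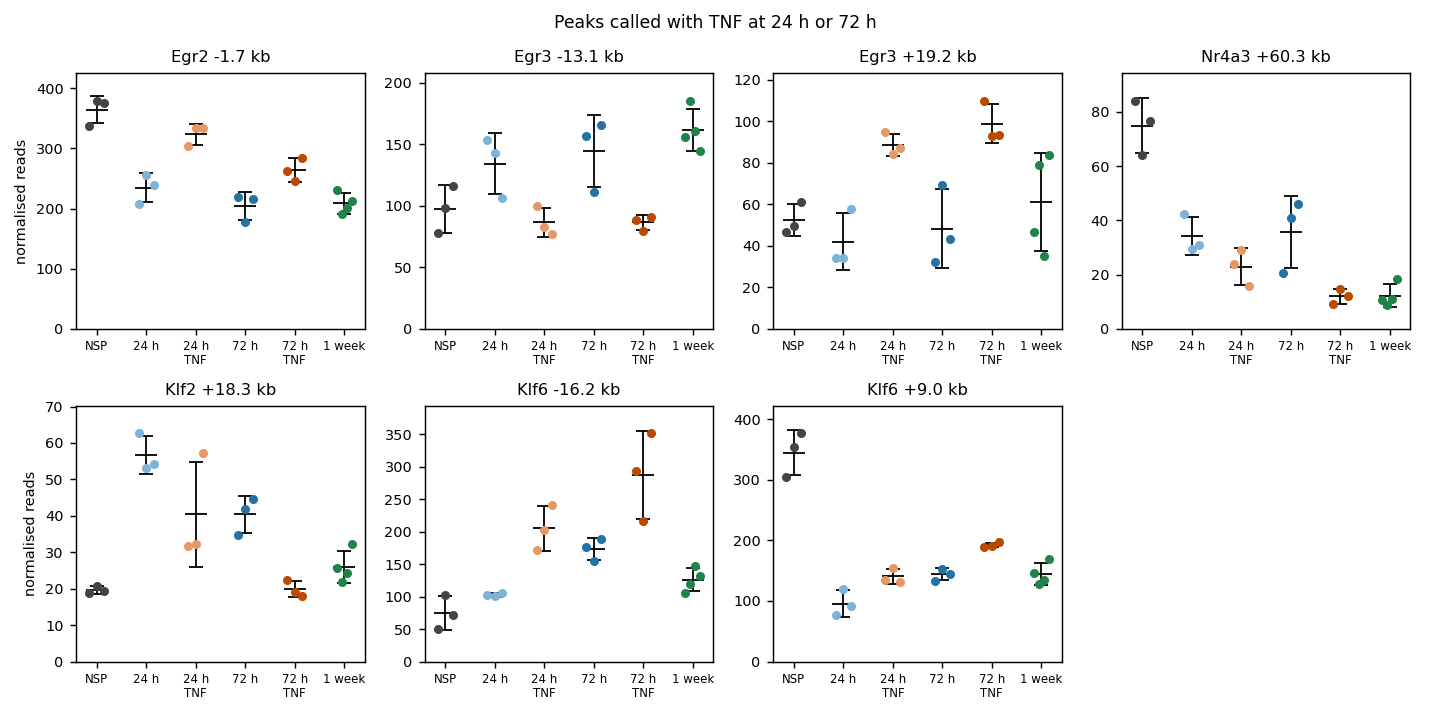
Normalised reads (vertical axis, from 0) of the 7 peaks called with TNF at 24 h or at 72 h, in the 6 groups. Points are libraries, and the bar and whiskers are the mean and SD. At Klf6 -16.2 kb and Egr3 +19.2 kb the TNF libraries lie above the untreated libraries of the same time, and at Egr3 -13.1 kb below them.

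The Klf6 peak at -16.2 kb (chr13:5845046-5845546) gave the smallest adjusted p with TNF. It had 102, 100.3 and 106 at 24 h and 172, 203 and 242 with TNF, and 176, 156 and 189 at 72 h and 293, 217 and 352 with TNF. At each time all treated libraries lay above all untreated ones. The log2 fold change was 0.98 ± 0.21 (adjusted p = 0.00195) at 24 h, a call kept on leaving out any library, and 0.70 ± 0.21 (adjusted p = 0.0249) at 72 h, a call lost on leaving out 72 h replicate 1 or 2 or 72 h with TNF replicate 1 or 3 (0.54 to 0.72) and with total-read scaling (0.63, adjusted p = 0.0542). In NSPs the same peak had 49.7, 103 and 72.4 and after 1 week 106, 120.0, 147 and 132. It thus rose in untreated differentiation as well, by 1.26 ± 0.21 at 72 h and 0.80 ± 0.20 after 1 week. The rise at 24 h (0.51 ± 0.21 (adjusted p = 0.0433)) was 0.25 and not called without NSP replicate 1 and was also lost with 6 other single libraries left out, each of the 24 h replicates, NSP replicate 3, 24 h with TNF replicate 2 and 72 h with TNF replicate 1. It was not called by edgeR (adjusted p = 0.06) or DESeq2 (adjusted p = 0.0711) either. The Klf6 peak at +9.0 kb was also higher, with 134, 155 and 132 at 24 h with TNF against 76.3, 119 and 91.1 without, a log2 fold change of 0.57 ± 0.16 (adjusted p = 0.0211) that was lost on leaving out 24 h replicate 1 or 3 or 24 h with TNF replicate 2 (0.42 to 0.55). At 72 h the value was 0.42 ± 0.16 (adjusted p = 0.0976), not called.

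At Egr3 distal peaks differed with TNF in opposite directions. The peak at +19.2 kb (chr14:70096270-70096770) had 34.2, 33.9 and 57.9 at 24 h and 94.6, 84.0 and 87.2 with TNF, and 32.2, 69.4 and 43.3 at 72 h and 110.0, 93.1 and 93.6 with TNF. The treated libraries lay above the untreated ones at both times and above the NSPs (46.7, 49.5 and 61.1) too. With TNF against no TNF, the log2 fold changes were 1.10 ± 0.30 (adjusted p = 0.015) at 24 h and 1.08 ± 0.30 (adjusted p = 0.0156) at 72 h. The call at 24 h was lost without 24 h replicate 1 or 2 or 24 h with TNF replicate 1 or 3 (0.98 to 1.11, adjusted p from 0.0512 to 0.0804), and that at 72 h without 72 h replicate 1 or 3 or 72 h with TNF replicate 1 (0.83 to 1.04). The peak at -13.1 kb (chr14:70063969-70064469) was lower with TNF, at 99.9, 83.0 and 76.8 against 154, 143 and 106 at 24 h and 88.5, 79.8 and 91.2 against 157, 111 and 166 at 72 h, and no treated library reached an untreated one. Its log2 fold changes were -0.62 ± 0.20 (adjusted p = 0.0383) and -0.72 ± 0.20 (adjusted p = 0.0142). The call at 24 h was lost without 24 h replicate 1 or 2 or 24 h with TNF replicate 2 or 3 (-0.59 to -0.51), and that at 72 h without 72 h replicate 1 or 3 or 72 h with TNF replicate 2 (-0.66 to -0.61). Without TNF the peak was higher than in NSPs at 72 h (0.56 ± 0.20, lost without NSP replicate 1 or 72 h replicate 1 or 3, at 0.41 to 0.50) and at 1 week (0.74 ± 0.18).

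The remaining calls with TNF were at Egr2, Nr4a3 and Klf2. At Egr2 -1.7 kb (chr10:67535957-67536457) the values were 208, 257 and 239 at 24 h and 303, 334 and 333 with TNF, a log2 fold change of 0.47 ± 0.13 (adjusted p = 0.0199), and 220.0, 177 and 215 and 262, 245 and 284 at 72 h, a change of 0.37 ± 0.13 (adjusted p = 0.0638) that was not called. All treated libraries lay above all untreated ones at both times. The 24 h call was lost without 24 h replicate 1 or 24 h with TNF replicate 2 or 3 (0.38 to 0.44), and the 72 h value was called without NSP replicate 1 (0.37, adjusted p = 0.032). At Nr4a3 +60.3 kb (chr4:48105330-48105830), beyond the end of the gene, TNF libraries had 8.94, 14.8 and 12.0 at 72 h against 20.6, 40.7 and 45.9, a log2 fold change of -1.46 ± 0.37 (adjusted p = 0.00912), and 23.9, 29.1 and 15.6 at 24 h against 42.1, 29.5 and 30.8, a change of -0.58 ± 0.37 (adjusted p = 0.394). The 72 h call was lost without 72 h replicate 3 or 72 h with TNF replicate 1 (-1.28 to -1.24). At Klf2 +18.3 kb the values were 22.4, 19.2 and 18.0 at 72 h with TNF against 34.7, 41.9 and 44.6 without, a log2 fold change of -0.99 ± 0.30 (adjusted p = 0.03), and at 24 h 31.8, 32.3 and 57.1 with TNF, a change of -0.53 ± 0.30 (adjusted p = 0.323). The groups did not overlap at 72 h and did at 24 h. The 72 h call was lost without 72 h replicate 2 or 3 or 72 h with TNF replicate 2 or 3 (-0.97 to -0.91).

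At the other 3 genes no peak was called with TNF. The peak with the smallest p at Egr1, at +4.3 kb, had 196, 200.4 and 416 at 24 h with TNF, 1 library far above the others. Its log2 fold change of 0.62 ± 0.33 (adjusted p = 0.265) was called without NSP replicate 1 (0.62, adjusted p = 0.00687). That library enters this comparison only through the spread estimated over all libraries. With only the compared groups fitted, the peak was called higher at 24 h (0.62, adjusted p = 0.0128) and lower at 72 h (-0.39, adjusted p = 0.046). All treated libraries lay above the untreated ones at 24 h and below them at 72 h. At Nr4a1 +10.7 kb the log2 fold change was -0.37 ± 0.13 (adjusted p = 0.0563) at 72 h, from 439.9, 466 and 489.7 with TNF, below all untreated libraries. This value was called with total-read scaling (-0.45), with loess scaling (-0.46), by edgeR (-0.41) and DESeq2 (-0.39), and without NSP replicate 1, 24 h replicate 1 or 3 or 72 h replicate 2 (-0.45 to -0.37). At the Klf4 start it was 0.24 ± 0.18 (adjusted p = 0.455) at 72 h. The difference between the TNF effects at 72 h and at 24 h was tested as an interaction. By limma-trend 0 of the 44 peaks were called in either direction, against 0% higher and 0.00112% lower among all peaks, and 4 of the 44 had an unadjusted p under 0.05. By edgeR and DESeq2 it was 0 of the 44 as well. The largest was -1.01 ± 0.46 (adjusted p = 0.646) at Egr1 +4.3 kb.

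From 72 h to 1 week 8 of the 44 peaks were higher and 9 lower, against 22.5% and 16.2% of all peaks. The split moved with the scaling used. With total-read scaling 2 were higher and 18 lower, and with loess scaling 1 was higher and 8 lower, while the share of higher calls over all peaks went from 58.2% to 21.0% and 53.2%, and the median of all peaks from 0.02 to -0.31 and 0.02. Of the start peaks 4 were higher, at Egr1 (0.43 ± 0.10 (adjusted p = 0.000637)), Klf2 (0.49 ± 0.10 (adjusted p = 0.000274)), Klf4 (0.57 ± 0.17 (adjusted p = 0.0107)) and Klf6 (0.65 ± 0.13 (adjusted p = 0.000342)), against 1 with total-read scaling and 0 with loess scaling, under which Egr1 went to -0.20, Klf2 to -0.10, Klf4 to 0.19 and Klf6 to 0.02. The Klf4 call was also lost without 72 h replicate 1 (0.42, adjusted p = 0.0971). Among gene-end peaks in general 54.0% were higher and 6.11% lower. The 9 lower peaks included none at a start. Nr4a1 +1.1 kb (-1.34 ± 0.28 (adjusted p = 0.00036)), Nr4a1 +10.7 kb (-0.54 ± 0.12) and Nr4a3 +60.3 kb (-1.46 ± 0.35, adjusted p = 0.0603 with loess scaling) were among them.

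The relatives of these genes were counted by their gene-end peaks. For comparison, 39.3% of all gene-end peaks were lower and 6.27% higher than in NSPs at 24 h (median log2 fold change -0.28). The shares were 53.7% and 9.62% at 72 h (median -0.39) and 27.6% and 26.5% at 1 week. With TNF 1.97% were higher at 24 h and 3.29% at 72 h. Of 8 relatives (Egr4, Nr4a2, Klf5, Klf7, Klf9, Klf10, Klf13 and Klf15), 7 were lower and 0 higher at 24 h than in NSPs (median log2 fold change -0.63), all but Klf5, with 7 lower at 72 h and 4 at 1 week. Egr4, whose product binds the same sites as EGR1, fell by 1.26 ± 0.17 on the log2 scale at 24 h, and Nr4a2, known from dopamine neurons, by 0.35 ± 0.14. Of 14 other immediate early genes 13 had a gene-end peak, and Npas4 had none. There were 11 lower and 0 higher at 24 h (median -0.84), 10 lower and 1 higher at 72 h, and 5 lower at 1 week. Fos, an AP-1 subunit, changed by -1.21 ± 0.14, Dusp1, a phosphatase of MAP kinases, by -1.20 ± 0.17 and Arc, a synaptic protein, by -1.09 ± 0.11 at 24 h. With TNF, Fos (0.44 ± 0.14, adjusted p = 0.0367) and Junb (0.54 ± 0.14, adjusted p = 0.0112) were higher at 24 h and Maff (0.55 ± 0.14, adjusted p = 0.00781) at 72 h, and no relative was called. Of 10 upstream and partner factors, 3 were lower at 24 h, 9 at 72 h and 4 at 1 week, when 3 were higher. Nab2, the corepressor of EGR proteins, was lower at 24 h by a log2 fold change of -0.76 ± 0.11, and Srf, which encodes serum response factor, had -0.26 ± 0.16 (adjusted p = 0.179).

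The start peaks of the Egr and Nr4a genes and Klf4 followed each other over the 19 libraries, with Pearson correlations of log2 values from 0.62 to 0.92 between pairs. Those of Klf2 and Klf6 with the 6 others ranged from 0.18 to 0.63, and with each other it was 0.65. Among 13442 gene-end peaks of other genes, the most alike were at Mki67 for Egr1 (0.95), Lbh for Egr2 (0.94), Gm30599 for Egr3 (0.93), Pde10a for Nr4a1 (0.94), Sox3 for Nr4a3 (0.96), Xpot for Klf2 (0.94), Acvr2b for Klf4 (0.98) and Peg3 for Klf6 (0.97). The median correlation with all candidates ranged from 0.26 for Egr3 to 0.49 for Klf6. The libraries share their groups, and these correlations are descriptions.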

How the data were processed

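Open chromatin was profiled by ATAC-seq in 19 mouse libraries of 6 groups. Per the labels and the stated methods, reads were trimmed by the authors (Trim Galore), who aligned to mm10 with Bowtie2, dropped mitochondrial reads using SAMtools, took peaks from MACS2 outside blacklisted regions and tested with DiffBind. Versions, duplicate handling, any transposase shift of reads and the making of the table were not given in the sources used here. Without a shift a read end would lie a few bases off, which is small beside peaks 500 bp long.

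For every peak the deposited table gives the normalised signal of each library, made by the authors. All values (100%) came out as whole numbers of reads after dividing by the value of 1 read (tolerance 0.01 reads), that is, reads scaled by a size factor. Values were tested as log2(value + 1) with limma-trend (limma 3.58.1, R 4.3.3), a mean per group over 19 libraries and no covariate. This scale understates changes of low peaks. Peaks passed edgeR's filterByExpr with a minimum count of 10 (88919 kept, 1235 left out). Tests were two-sided, with Benjamini-Hochberg adjustment. As the values are not raw, edgeR 4.0.16 and DESeq2 1.42.0 on the recovered reads were alternatives, beside other scalings, pseudocounts, filters, windows, replicate blocks and leaving out each library. Scripts were tested on simulated data.

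Gene positions came from RefSeq on GRCm38.p6, which carries the same coordinates as mm10. Exons and introns were not assigned, and no genome was used, so peak sequences are not shown. A gene-end peak has its centre no more than 1 kb from either end of a protein-coding gene. Named peaks were, per gene, the start peak, the peak with the smallest p at 24 h against NSPs and that with the smallest p with TNF at either time. The genes, lists and this rule were chosen with earlier results of these data known. Same-numbered replicates did not deviate together (checked by correlation of their deviations), so the numbers were not taken as pairs.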

Additional observations from a re-analysis of the deposited data

Results flagged for a closer look

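At Nr4a1 -31.1 kb, the library values at 1 week were 13.2, 9.35, 33.0 and 11.8 normalised reads. Replicate 3 lay far above the other 3, with a gap of 0.836 of the whole range past Dixon's 95% critical value for groups of 4. It was the only 1 of 52 such checks over the 44 peaks and 8 gene sums at 1 week to pass, and chance alone passes about 1 in 20. Replicate 3 was the shallowest library of all. The peak was called lower than in NSPs at 1 week (log2 fold change -2.79) also without any single library.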

How the results depend on the processing

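The counts of peaks lower than in NSPs stayed within 1.5 times the reported value under all alternatives run, and other counts moved. With peaks within 5 kb of a gene only, the counts of higher peaks were 2 at 24 h, 1 at 72 h and 1 at 1 week against NSPs, with TNF 2 higher and 0 lower at 24 h and 0 and 0 at 72 h, and 4 were lower from 72 h to 1 week. Fitting only the groups compared gave 2 higher at 24 h, and 5 higher and 6 lower with TNF at 72 h. Total-read scaling gave 1 higher with TNF at 72 h, and 2 higher and 18 lower from 72 h to 1 week, and loess scaling 1 higher there. Values that changed sign were, with loess scaling, the start peaks of Klf2 at 72 h (0.007, adjusted p = 0.946) and, from 72 h to 1 week, of Egr1 (-0.20), Nr4a1 (-0.30, adjusted p = 0.0282) and Klf2 (-0.10), and with total-read scaling Egr2 -1.7 kb from 72 h to 1 week (-0.31, adjusted p = 0.0497). In each case the cause was not tested. Ranges of the counts of higher and lower peaks were taken by leaving out 1 library of the compared groups at a time. They were 2 to 4 and 23 to 26 at 24 h, 7 to 8 and 22 to 25 at 72 h, and 6 to 9 and 22 to 25 at 1 week. With TNF they were 1 to 3 and 0 to 1 at 24 h, and 0 to 2 and 0 to 3 at 72 h. From 72 h to 1 week they were 7 to 9 and 6 to 11. These ranges do not cover libraries of the other groups, which also enter the fit. Without NSP replicate 1, for example, Egr1 +4.3 kb, Klf2 -15.2 kb and Klf6 +2.3 kb were also called higher with TNF at 24 h. At 72 h Egr2 -1.7 kb and Nr4a3 -2.0 kb were then also higher and Nr4a1 +10.7 kb lower. With TNF at 24 h the count of higher peaks was 1 without 24 h replicate 1 and 2 without 24 h with TNF replicate 2 or 3, and the count of lower peaks was 0 without 24 h replicate 1 or 2 or 24 h with TNF replicate 2 or 3. With TNF at 72 h the count of higher peaks was 0 without 72 h replicate 1 and 1 without 72 h replicate 2 or 3 or 72 h with TNF replicate 1 or 3, and that of lower peaks 0 without 72 h replicate 3 and 1 without 72 h with TNF replicate 2. Higher peaks at 24 h numbered 2 without 24 h replicate 1. A replicate block by the numbers of the titles or of the library names gave 0 lower with TNF at 24 h, the latter also 0 higher with TNF at 72 h, and the numbers did not pair the samples (correlations of same-numbered deviations of -0.031 to 0.106). Of the other values recomputed, 2602 kept their direction and call or stayed within their spread, 50 lost a call, 20 gained one and 133 moved by more than their spread, most of them with total-read scaling or narrower windows. The counts of start peaks were added after seeing the data. The depth limits the low peaks most, since 9 of the 44 had under 20 reads in some library.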
